A study of Mus musculus with 36 samples.

Results

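Enteric glial cells (EGCs), the glia of the gut wall's own nervous system, were compared after 12 h with conditioned medium of colorectal tumors (TME-CM) and after 12 h without stimulation. The comparison holds 8 of the study's 36 RNA libraries, taken by their labels alone: 4 labelled as tumor conditioned medium at 12 h and 4 labelled as unstimulated at 12 h. The comparison itself was chosen with earlier results of these data known. All cells were wild type (WT), and by the study's methods they were grown from intestines of C57BL/6J mouse embryos as neurospheres and then differentiated into a glial culture in medium with serum. TME-CM was medium in which the cells of digested orthotopic MC38 tumors had been kept overnight, MC38 being a mouse colon carcinoma cell line. H-CM, made in the same way from healthy colon, was given to 4 further libraries of the same time. The unstimulated cells received no conditioned medium of either kind. A difference between TME-CM and unstimulated EGCs therefore cannot be divided from this comparison alone into a response to tumor material and a response to any medium conditioned by colonic cells. H-CM values are set beside many of the results for this reason. The cultures are of embryonic origin and no labelled group holds adult glia.

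Glia that meet injury or inflammatory signals turn reactive: they switch on chemokines, acute-phase proteins, proteases and antigen presentation genes. Much of this program is driven by transcription factors of the NF-kB family, which cytokines such as IL-1 and TNF and Toll-like receptor ligands activate, and by the STAT and IRF factors that act downstream of interferons. Contractile genes such as those of smooth muscle depend on the factor SRF, which binds a short element called the CArG box.

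The labelled cell type was checked against marker genes before any comparison. All 7 genes used here to define enteric glia, among them Sox10, S100b, Gfap, Foxd3, Erbb3 and Entpd2, had counts, and their summed level lay between 195 and 227 CPM (read counts scaled to a common library size with TMM factors) in TME-CM and between 223 and 257 CPM in unstimulated EGCs, with 0 of 7 called different (1 at an unadjusted p under 0.05 by edgeR, 0 called by DESeq2). The glial intermediate filament gene Gfap was low, at 2.32, 1.66, 5.99 and 5.76 CPM in the 4 TME-CM libraries and 4.21, 0.428, 3.83 and 5.97 CPM in the 4 unstimulated libraries. Sox10, the transcription factor that defines glia of neural crest origin, stood at 74.9, 78.3, 60.5 and 57.1 CPM against 73.1, 65.0, 58.5 and 66.6 CPM, and the groups overlapped. Genes of other cells were present: the 12 smooth muscle markers summed to between 9507 and 9936 CPM in unstimulated EGCs, 12 fibroblast and mesenchymal markers to between 6024 and 7237 CPM, 6 neuron markers to between 335 and 385 CPM, and 20 macrophage and immune markers to between 78.7 and 429 CPM. The smooth muscle, fibroblast and neuron sums were each above that of the enteric glia markers, though the lists differ in their genes. EGCs is used here for the whole culture, as labelled. In TME-CM the macrophage and immune markers summed to between 115 and 516 CPM, and edgeR called 0 of their 16 tested members (3 at an unadjusted p under 0.05, 1 called by DESeq2). The part of these cells in the changes of immune genes below was not tested. The 10 epithelial markers summed to at most 12.0 CPM in any of the 8 libraries, with Cldn7 at 0 in all of them, and Cldn5 of the endothelial list and Cd79a of the immune list were also at 0. Library totals lay between 2756415 and 4942962 counts in TME-CM and between 2005239 and 5961933 in unstimulated EGCs (two-sided exact permutation test, p = 0.771), and a single entry of the table, Yam1, took 12.6% to 39.9% of the counts in the 12 libraries of this time, and its share overlapped between the 2 groups.

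Of 12156 genes tested, 536 (4.41%) passed an adjusted p of 0.05 between TME-CM and unstimulated EGCs at 12 h. Higher in TME-CM were 325 genes (2.67%) and lower were 211 (1.74%). The test was edgeR's quasi-likelihood test with Benjamini-Hochberg adjustment over all genes tested, and every adjusted p below is from it. Fold changes are log2(TME-CM over unstimulated) with their standard error (SE), and levels are CPM. The higher genes moved further than the lower ones: their median log2 fold change was 2.17 in size against 1.16, and 115 of them changed at least 8-fold against 4 of the lower genes. In 1288 genes (10.6%), the 4 libraries of one group lay all above or all below the 4 of the other, and 516 of the 536 called genes were among these. The median log2 fold change over all genes tested was -0.0028. Without unstimulated replicate 3 the lower calls numbered 138. With all 36 libraries of the study in one model, termed the 36-library model below, 288 genes were called, 64 of them lower. The adjusted p is given for each gene that lost its call there among the genes checked one by one. Genes named only for a CArG box or only for a change between times were not checked in this way. Nothing in the labels says that the libraries of a group came from separate cultures, so these p-values measure the spread between the deposited samples, which may be technical.

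**Figure D1:**
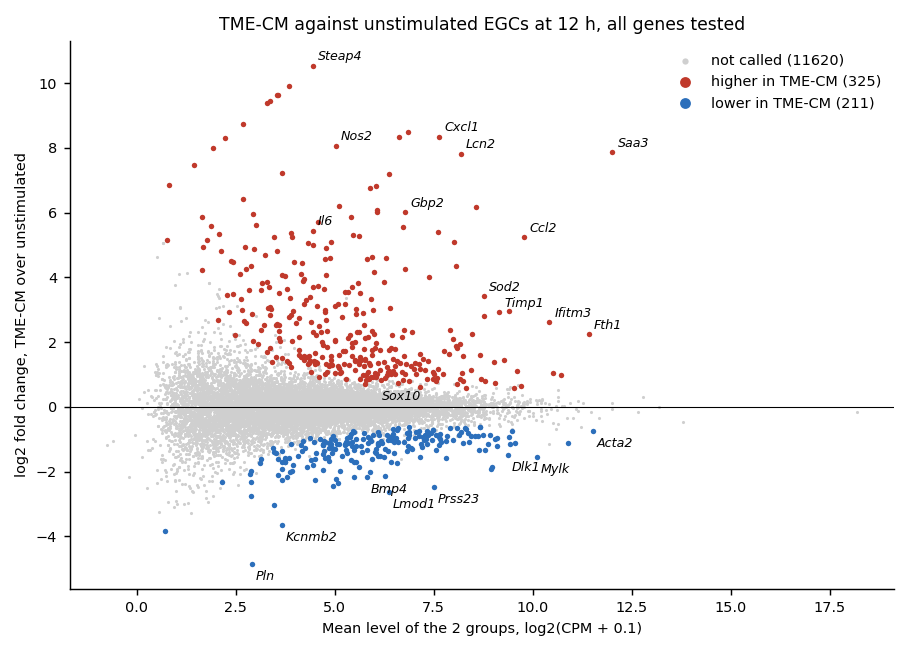
Log2 fold change of TME-CM over unstimulated EGCs at 12 h (vertical axis) against the mean level of the 2 groups as log2(CPM + 0.1) (horizontal axis), one point for each of the 12156 genes tested. Red points are the 325 genes called higher in TME-CM, which reach further from 0 than the 211 blue points called lower, and Sox10 lies close to 0.

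Several gene lists held far more higher calls than the 2.67% of all genes tested. The lists were drawn up with earlier results of these data known, so a share above that of all genes is no independent support. All 10 tested guanylate-binding and immunity-related GTPases rose, as did 3 of 3 ELR CXC chemokines, 9 of 10 acute-phase and antimicrobial genes, 21 of 25 interferon-stimulated genes, 9 of 14 genes of MHC class I presentation, 6 of 10 CC chemokines, 7 of 12 pan-reactive astrocyte genes, 6 of 11 metallothioneins and iron handling genes, 3 of 5 NF-kB subunits and 13 of 28 genes of hypoxia and glycolysis. Of the smooth muscle markers, 8 of 11 were lower, and of the axon guidance genes 5 of 29, beside 1.74% of all genes. Shares of 2.67% higher and 1.74% lower are the background for every list count below. Among the lists in which edgeR called no member were 29 genes of sterol and fatty acid synthesis (3 at an unadjusted p under 0.05, 0 called by DESeq2), 13 mitochondrially encoded genes (0 and 0) and 9 S100 genes (5 and 3).

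**Figure D2:**
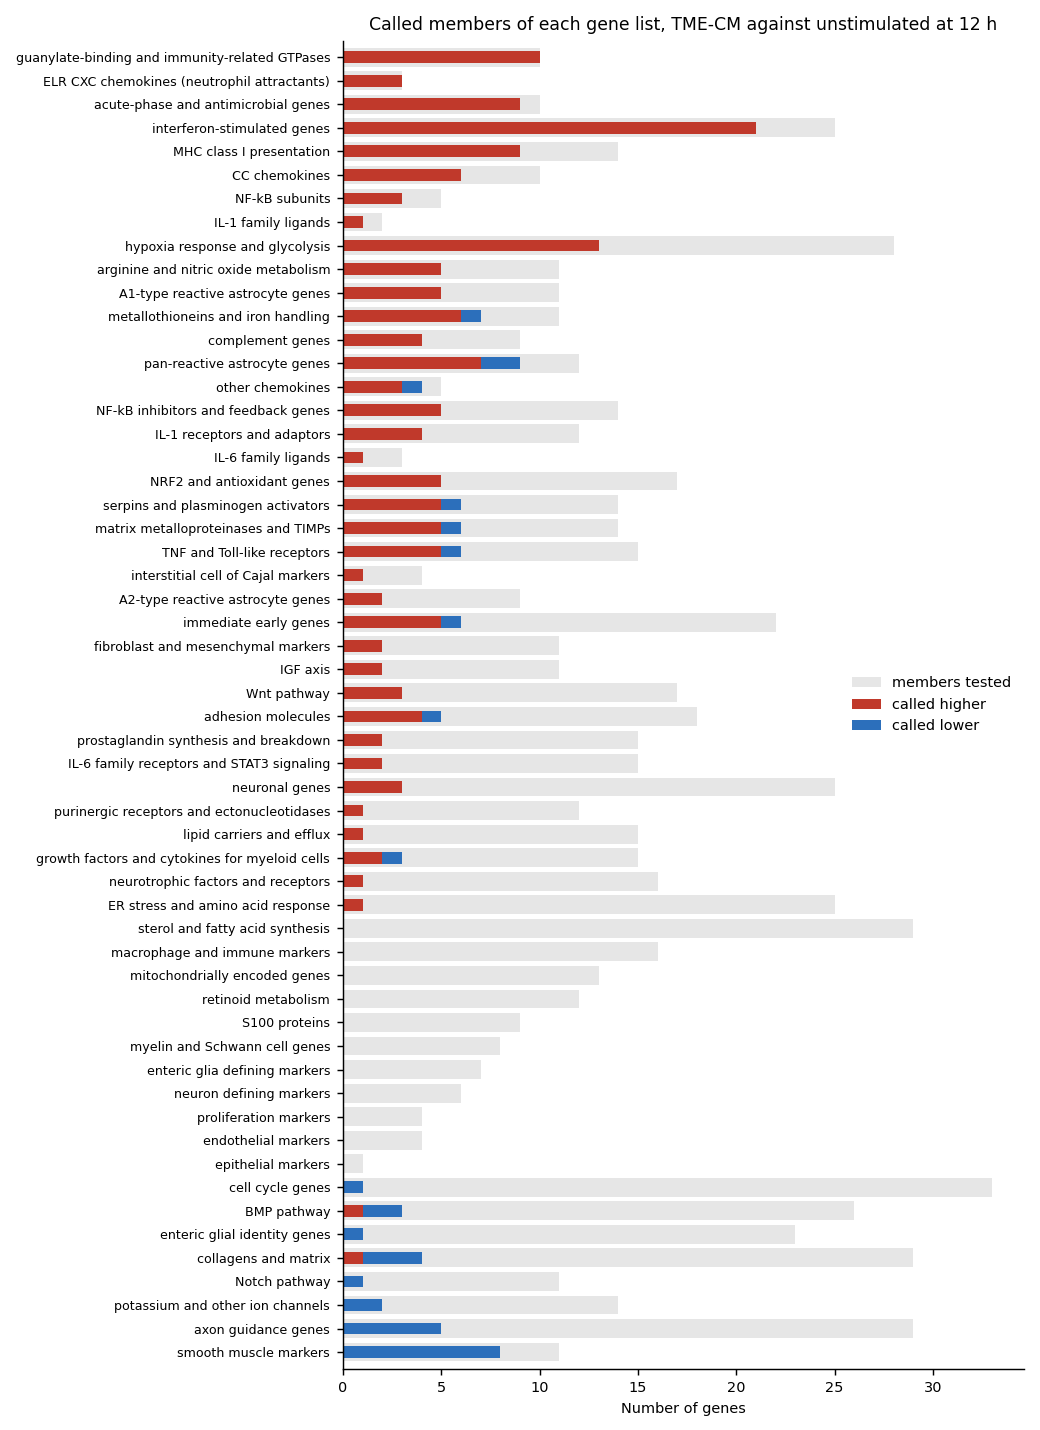
Number of genes (horizontal axis) in each gene list (vertical axis), ordered by the share called higher minus the share called lower. Grey bars give the members tested, red the members called higher in TME-CM and blue those called lower; the guanylate-binding and immunity-related GTPases are at the top with 10 of 10 higher and the smooth muscle markers at the bottom with 8 of 11 lower.

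Chemokines that recruit neutrophils and monocytes rose in TME-CM. Cxcl1, a ligand of the neutrophil receptor CXCR2 (chromosome 5, 90891241 to 90893115, + strand in the GRCm38 annotation), was measured at 391, 238, 346 and 617 CPM in TME-CM replicates 1 to 4 and at 0, 0.856, 1.09 and 1.80 CPM in unstimulated replicates 1 to 4. Its log2 fold change was 8.35 ± 0.55 (adjusted p = 1.44e-07). No unstimulated library came near the lowest TME-CM library. The H-CM libraries of 12 h lay between, at 69.0, 30.3, 23.3 and 22.0 CPM. Cxcl2, a second CXCR2 ligand, read 252, 91.5, 224 and 351 CPM against 1.58, 0, 1.09 and 0.278 CPM, with 33.6, 13.8, 6.42 and 7.98 CPM in H-CM, a log2 fold change of 8.48 ± 0.80 (adjusted p = 2.71e-05). Cxcl5, the third tested member of the group, read 194, 144, 211 and 239 CPM against 0.526, 0.428, 0.273 and 0.833 CPM, with 79.8, 21.7, 5.47 and 9.60 CPM in H-CM, a log2 fold change of 8.33 ± 1.01 (adjusted p = 4.08e-04).

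The monocyte chemoattractants Ccl2 and Ccl7, ligands of the receptor CCR2, were the CC chemokines with the most counts. Ccl2 stood at 1313, 1097, 1691 and 2798 CPM in TME-CM and at 23.1, 46.6, 44.8 and 65.0 CPM in unstimulated EGCs, with 484, 347, 217 and 325 CPM in H-CM. Ccl7 stood at 594, 594, 729 and 1065 CPM against 5.78, 5.13, 12.8 and 14.9 CPM, with 190.3, 114, 79.2 and 108 CPM in H-CM. For both genes the 4 TME-CM libraries were all above the 4 H-CM libraries, and these were all above the 4 unstimulated ones. The log2 fold change over unstimulated was 5.24 ± 0.37 for Ccl2 (adjusted p = 1.44e-07) and 6.17 ± 0.37 for Ccl7 (adjusted p = 1.50e-08), which had the smallest p of all genes tested. Ccl11, the eosinophil chemoattractant eotaxin, had no count in any unstimulated library and 15.996, 18.6, 21.9 and 37.5 CPM in TME-CM, which is at least 118-fold higher when 3 counts over the 4 unstimulated libraries, or 0.199 CPM, are taken as the limit that a count of 0 allows (adjusted p = 3.98e-06). Ccl20, which attracts cells with the receptor CCR6, had 3 counts in all in unstimulated EGCs, a ratio of 38.2 with a 95% counting interval of 12.8 to 188 (adjusted p = 0.00698). Ccl3 and Ccl5, which attract monocytes and T cells, rose by 3.86 and 3.37 on the log2 scale, at mean levels of 18.2 ± 4.17 and 26.4 ± 18.4 CPM (SD, n = 4). Ccl5 lost its call without any of 3 libraries, with an adjusted p of 0.118 without TME-CM 12 h replicate 4. In the 36-library model its adjusted p was 0.0581.

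Of the other chemokines, Cxcl10, an interferon-induced ligand of the T cell receptor CXCR3, rose from 0.526, 0.856, 0.820 and 1.53 CPM to 37.5, 169, 242 and 206 CPM, with replicate 1 the lowest TME-CM library. Its log2 fold change was 7.20 ± 0.91 (adjusted p = 4.37e-04). The membrane-bound chemokines Cxcl16 and Cx3cl1 rose by 3.32 ± 0.42 (adjusted p = 5.78e-05) and 2.23 ± 0.30 (adjusted p = 6.83e-05). Cxcl12, the homeostatic ligand of CXCR4, went the other way: it read 64.2, 57.2, 60.9 and 65.5 CPM in TME-CM and 128, 151, 113 and 138 CPM in unstimulated EGCs, without overlap, a log2 fold change of -1.10 ± 0.22 (adjusted p = 0.0037). Its H-CM values, 86.4, 119.5, 207 and 115 CPM, spanned those of the unstimulated group. The call of Cxcl12 was lost in the 36-library model (adjusted p = 0.143).

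Il6, the cytokine that signals through gp130 and STAT3, was at 0.526, 2.57, 0 and 0.972 CPM in unstimulated EGCs, 4.13, 0.717, 0 and 0.886 CPM in H-CM and 39.4, 34.0, 38.4 and 57.4 CPM in TME-CM. All 4 TME-CM libraries lay above every other library of this time. The log2 fold change over unstimulated was 5.44 ± 0.72 (adjusted p = 6.87e-05). Lif, another ligand of the same family, read 7.16, 9.94, 8.05 and 14.4 CPM against 4.21, 1.28, 4.92 and 5.14 CPM and did not pass the test (adjusted p = 0.458). Among 15 tested receptors and signaling genes of the IL-6 family, 2 were called, both higher: Osmr, the oncostatin M receptor, by 2.14 ± 0.26 (adjusted p = 1.74e-05) and Socs3, the feedback inhibitor that STAT3 induces, by 2.07 ± 0.32 (adjusted p = 2.05e-04). Stat3 itself read 425, 352, 429.9 and 306 CPM against 233, 248, 286 and 225 CPM, without overlap, and had an adjusted p of 0.059.

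Factors that act on myeloid cells held 2 higher calls and 1 lower call among 15 tested, beside 2.67% and 1.74% of all genes tested. Csf3, the granulocyte growth factor G-CSF, read 15.996, 4.97, 6.19 and 13.6 CPM against 0, 0, 1.64 and 0 CPM (adjusted p = 0.0289), and Mif read 139, 158, 114 and 179 CPM against 91.5, 86.0, 87.2 and 76.3 CPM, a log2 fold change of 0.79 ± 0.22 (adjusted p = 0.0407). Both calls were lost without single libraries: the adjusted p was 0.124 for Csf3 without TME-CM 12 h replicate 1 and 0.167 for Mif without TME-CM 12 h replicate 4, and both were also lost in the 36-library model (adjusted p = 0.0883 for Csf3 and 0.224 for Mif), and that of Csf3 with DESeq2 (adjusted p = 0.197). Csf1, the macrophage growth factor, overlapped between the groups at 300.3, 188, 393 and 376 CPM and 243, 172, 272 and 245 CPM (log2 fold change 0.43 ± 0.27, adjusted p = 0.618). Spp1, which encodes osteopontin, also overlapped, at 191, 153, 198 and 206 CPM and 167, 133, 118 and 161 CPM (log2 fold change 0.37 ± 0.18, adjusted p = 0.432). Tgfb3, a member of the TGF-beta family, fell from 93.6, 112, 104 and 109 CPM to 32.6, 45.6, 41.3 and 25.9 CPM, a log2 fold change of -1.53 ± 0.24 (adjusted p = 2.17e-04).

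The promoters of 4 of these and related genes are shown because they carry, within the 250 bases before the RefSeq start site (GRCm38.p6), the letters GGG, any 2 bases and TTTCC on either strand, a pattern that NF-kB dimers are known to bind. Capitals mark the matches, and each sequence is read 5′ to 3′ along the gene. The windows are chr5:90890995-90891244, + strand for Cxcl1, chr5:90903649-90903898, + strand for Cxcl2, chr5:30012864-30013113, + strand for Il6 and chr12:55492648-55492897, - strand for Nfkbia, which encodes the NF-kB inhibitor IkB-alpha. None of the marked matches overlaps a match of another motif searched here.
Cxcl1: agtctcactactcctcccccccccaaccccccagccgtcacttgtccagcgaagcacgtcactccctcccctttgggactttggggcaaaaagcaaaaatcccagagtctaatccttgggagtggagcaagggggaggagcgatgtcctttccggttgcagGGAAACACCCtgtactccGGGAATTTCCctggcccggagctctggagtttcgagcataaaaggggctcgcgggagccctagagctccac
Cxcl2: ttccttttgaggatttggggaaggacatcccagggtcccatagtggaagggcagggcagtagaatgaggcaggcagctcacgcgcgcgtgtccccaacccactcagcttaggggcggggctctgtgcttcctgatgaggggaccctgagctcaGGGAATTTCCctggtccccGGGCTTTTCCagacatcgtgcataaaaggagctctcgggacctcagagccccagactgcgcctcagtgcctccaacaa
Il6: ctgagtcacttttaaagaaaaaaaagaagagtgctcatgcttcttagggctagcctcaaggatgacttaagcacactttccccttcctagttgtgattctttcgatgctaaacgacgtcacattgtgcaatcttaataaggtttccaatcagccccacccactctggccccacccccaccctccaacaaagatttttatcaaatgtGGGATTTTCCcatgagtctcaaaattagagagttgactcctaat
Nfkbia: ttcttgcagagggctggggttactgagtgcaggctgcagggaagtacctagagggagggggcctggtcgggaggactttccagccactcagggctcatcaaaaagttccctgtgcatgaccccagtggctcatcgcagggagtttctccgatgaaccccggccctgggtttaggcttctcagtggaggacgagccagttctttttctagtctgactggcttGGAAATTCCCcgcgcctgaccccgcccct
A gene with several windows was counted when any of them held the pattern. Over all tested genes with such a window, 159 of 9322 (1.71%) held this pattern, beside 19 of 256 genes called higher (7.42%) and 1 of 161 genes called lower (0.621%). These are descriptions of letters in a fixed window, and no binding was measured.

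Of the 5 NF-kB subunits tested, 3 were called, all higher: Nfkb1, Nfkb2 and Relb, with log2 fold changes of 1.57 ± 0.36 (adjusted p = 0.00923), 1.32 ± 0.31 (adjusted p = 0.0116) and 1.53 ± 0.28 (adjusted p = 0.00127). Rela read 84.0, 58.4, 74.1 and 94.3 CPM against 57.8, 53.5, 57.7 and 68.6 CPM and overlapped. Among 14 inhibitors and feedback genes, 5 were called and all were higher. Nfkbia, whose promoter is printed above, read 417, 361, 478 and 571 CPM in TME-CM, 89.9, 152, 107 and 129 CPM in unstimulated EGCs and 275, 296, 264 and 236 CPM in H-CM, a log2 fold change over unstimulated of 1.93 ± 0.19 (adjusted p = 2.53e-06). The 3 groups did not overlap for this gene, with H-CM between the others. Nfkbiz and Bcl3, atypical IkB proteins that act in the nucleus, rose by 2.52 and 3.30, Tnip1, a partner of the deubiquitinase A20, by 1.75, and Zc3h12a, an RNase that degrades cytokine mRNAs, by 4.83. Tnfaip3, which encodes A20, had 5.26, 1.24, 5.78 and 12.6 CPM against 3.15, 0, 1.64 and 2.91 CPM and was not called (adjusted p = 0.49). The calls of Nfkb1 and Nfkb2 each rested on a single library, with an adjusted p of 0.066 for Nfkb1 without TME-CM 12 h replicate 4 and 0.055 for Nfkb2 without unstimulated 12 h replicate 3, and in the 36-library model the adjusted p was 0.104 for Nfkb1, 0.147 for Nfkb2 and 0.0957 for Relb.

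Receptors upstream of NF-kB rose in part. Il1r1, the signaling receptor for IL-1, was measured at 73.9, 62.5, 74.1 and 57.1 CPM in TME-CM and at 24.7, 9.84, 38.5 and 26.5 CPM in unstimulated EGCs, and the H-CM libraries at 41.8, 29.6, 19.7 and 30.3 CPM lay mostly within the unstimulated range. Its log2 fold change was 1.41 ± 0.31 (adjusted p = 0.00626). The co-receptor Il1rap rose by 1.44, the adaptor Myd88 by 1.27 and the kinase gene Map3k8 by 3.69, so that 4 of 12 tested IL-1 receptors and adaptors were higher and none lower. Il1rn, which encodes the natural antagonist of the receptor, rose by 3.004 ± 0.81 (adjusted p = 0.0331), a call that was lost without any of 6 libraries (adjusted p = 0.133 without unstimulated 12 h replicate 4). The cytokine Il1b had too few counts to be tested. In the TNF and Toll-like receptor list, 5 of 15 were higher and 1 lower. Tlr2, which senses bacterial lipoproteins, had no count in unstimulated EGCs and 23.4, 17.0, 21.5 and 19.9 CPM in TME-CM, at least 106-fold higher (adjusted p = 1.22e-05), and 6.88, 2.87, 11.4 and 1.92 CPM in H-CM. The intracellular sensor Nod1, the death receptor Fas and the costimulatory receptors Cd40 and Tnfrsf9 were the other 4. Tnfrsf11b, which encodes osteoprotegerin, the decoy receptor for RANKL, fell from 49.95, 66.3, 64.8 and 74.9 CPM to 17.0, 18.6, 25.2 and 21.0 CPM (log2 fold change -1.65 ± 0.24, adjusted p = 1.11e-04), with 23.9, 35.8, 21.4 and 28.8 CPM in H-CM. Not called in the 36-library model were Il1r1, Il1rap, Myd88, Il1rn and Tnfrsf9, with an adjusted p of 0.0515 for Il1r1, 0.137 for Il1rap, 0.285 for Myd88, 0.15 for Il1rn and 0.0647 for Tnfrsf9.

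**Figure D3:**
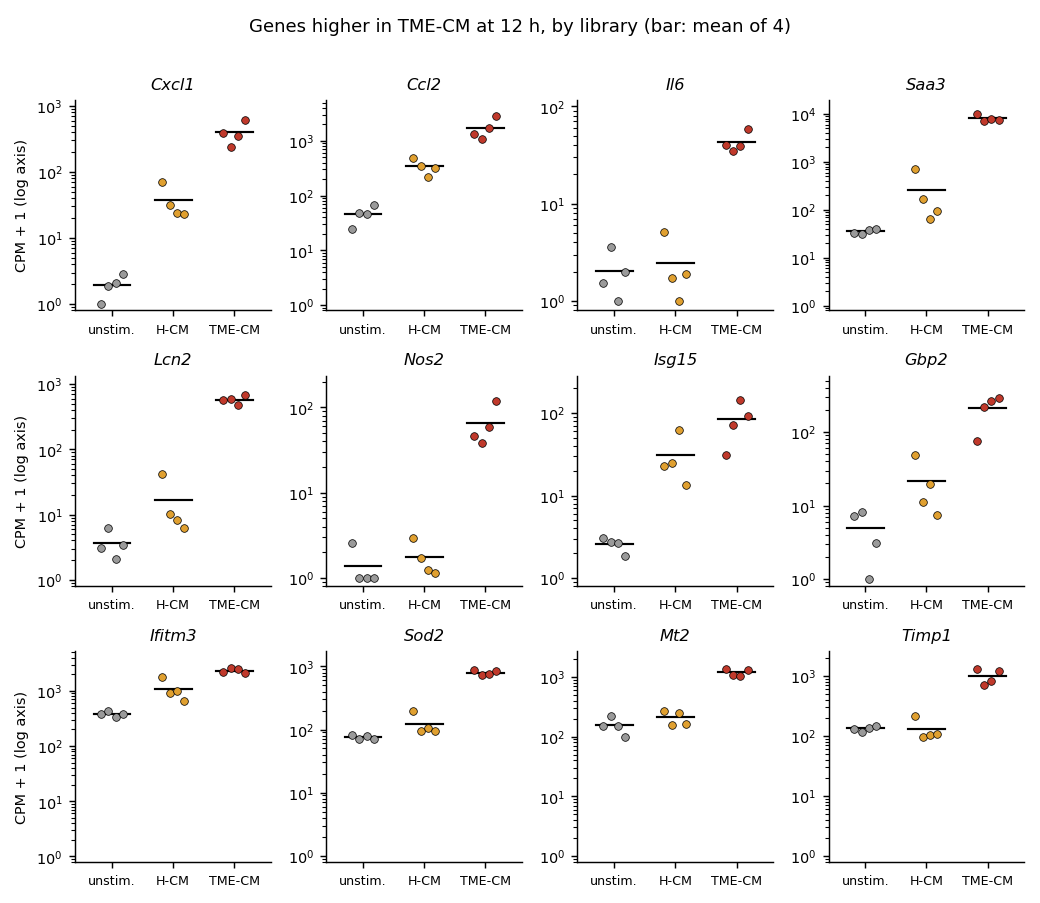
CPM + 1 on a log axis (vertical) for 12 genes called higher in TME-CM, one point for each of the 4 libraries of the unstimulated, H-CM and TME-CM groups at 12 h (horizontal), with a bar at the group mean. The 4 TME-CM points lie above all 4 unstimulated points in every panel, and H-CM replicate 1 is the highest H-CM point for Saa3, Lcn2 and Cxcl1.

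Secreted acute-phase proteins rose, 9 of 10 tested, with a median log2 fold change of 6.19. Saa3, a serum amyloid A made outside the liver (chromosome 7, 46711998 to 46715700, - strand), rose from 32.1, 30.4, 36.6 and 39.1 CPM to 9851, 7216, 7997 and 7577 CPM, a log2 fold change of 7.87 ± 0.86 (adjusted p = 3.09e-04). Its H-CM libraries read 710.1, 171, 63.2 and 91.9 CPM, so that replicate 1 stood apart from the other 3. Lcn2, lipocalin 2, which binds iron-loaded bacterial siderophores (chromosome 2, 32384633 to 32388252, - strand), rose from 2.10, 5.13, 1.09 and 2.36 CPM to 566, 598, 472 and 675 CPM, with 41.0, 9.32, 7.13 and 5.32 CPM in H-CM. Its log2 fold change was 7.83 ± 0.73 (adjusted p = 4.58e-05). Saa1 and the protease inhibitor Slpi had no count in the 4 unstimulated libraries and were at least 155-fold and 119-fold higher. Saa2 and the chitinase-like Chil1 had 3 and 2 counts there, giving ratios of 77.6 (95% counting interval 26.2 to 379) and 104 (28.3 to 860.3). The copper carrier ceruloplasmin Cp rose from 4.63 ± 2.09 to 117 ± 20.7 CPM (SD, n = 4), the lipopolysaccharide-binding protein Lbp from 0.897 ± 0.981 to 39.0 ± 8.91 CPM and haptoglobin Hp from 0.462 ± 0.835 to 12.6 ± 5.71 CPM. Saa1, Saa2 and Saa3 are near-identical in places and reads that map to more than one locus were discarded, so the split between Saa1 and Saa2 is uncertain.

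Lists that were drawn up for reactive astrocytes of the brain moved in part. Of 12 pan-reactive genes tested, 7 were higher: Lcn2, Steap4, Timp1, Cxcl10, Osmr, Cp and Serpina3n. Steap4, a metalloreductase (chromosome 5, 7960457 to 7982213, + strand), had 41.9, 22.0, 65.2 and 45.3 CPM in TME-CM and no count in any unstimulated library, at least 236-fold higher (adjusted p = 1.66e-05). Serpina3n, a secreted serine protease inhibitor, rose by 4.58 ± 0.47 (adjusted p = 3.41e-06). In the same list S1pr3 and Hspb1 fell, the second, a small heat shock protein, from 788, 719, 715 and 815 CPM to 361, 279, 369 and 299 CPM without overlap (log2 fold change -1.21 ± 0.20, adjusted p = 5.72e-04). S1pr3 lost its call without any of 3 libraries (adjusted p = 0.0903 without TME-CM 12 h replicate 2) and in the 36-library model (adjusted p = 0.196). Vim and Cd44 were not called, at log2 fold changes of -0.36 ± 0.16 and 0.07 ± 0.16. Of 11 A1-type genes 5 were higher (Serping1, H2-D1, Iigp1, Gbp2 and C3), and of 9 A2-type genes 2 were (Ptgs2 and Tm4sf1). The 5 A1-type genes are also complement, MHC or interferon-induced genes.

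Complement genes of the early classical pathway and the central component were higher: C3 rose from 5.78, 1.28, 0 and 1.39 CPM to 67.4, 21.5, 65.8 and 55.8 CPM (log2 fold change 4.90 ± 0.82, adjusted p = 0.00187), and the proteases C1s1 and C1ra rose by 2.84 and 2.54. Serping1, the inhibitor of both proteases, read 359, 282, 428 and 357 CPM against 109, 98.4, 119 and 134 CPM (log2 fold change 1.63 ± 0.18, adjusted p = 6.97e-06). In all, 4 of 9 tested complement genes were called. The call of C1ra was lost in the 36-library model (adjusted p = 0.074).

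Metal-binding genes rose at high counts. Fth1, the ferritin heavy chain that stores iron, went from 877, 1179, 948 and 786 CPM to 4958, 4123, 3652 and 5204 CPM, with 2548, 1105, 1693 and 1251 CPM in H-CM (log2 fold change 2.24 ± 0.23, adjusted p = 2.97e-06). Mt2, a metallothionein, went from 151, 223, 147 and 96.6 CPM to 1345, 1065, 1038 and 1313 CPM (log2 fold change 2.95 ± 0.24, adjusted p = 1.44e-07), and Mt1 rose by 1.43. The iron importer Slc11a2 rose by 1.84 ± 0.30, while Slc40a1, which encodes ferroportin, the cellular iron exporter, fell from 13.7, 25.2, 29.3 and 18.04 CPM to 8.42, 3.31, 8.26 and 8.38 CPM (log2 fold change -1.57 ± 0.35, adjusted p = 0.00758). H-CM values of Slc40a1 were 16.8, 19.7, 29.0 and 17.4 CPM, close to those of the unstimulated group. In this list 6 of 11 genes were higher and 1 lower. The call of Slc40a1 was lost in the 36-library model (adjusted p = 0.375).

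Interferon-stimulated genes rose together, with 21 of 25 tested higher, 0 lower and a median log2 fold change of 3.55 against -0.0028 over all genes tested. Isg15, a ubiquitin-like modifier, rose from 2.10, 1.71, 1.64 and 0.833 CPM to 30.3, 70.8, 142 and 89.9 CPM (log2 fold change 5.86 ± 0.63, adjusted p = 2.04e-05). Ifit1, which binds foreign RNA caps, rose from 2.10, 0.856, 1.09 and 3.19 CPM to 41.7, 128, 199 and 162 CPM (log2 fold change 6.01 ± 0.84, adjusted p = 0.00103). In both genes the lowest TME-CM library was replicate 1. The H-CM libraries read 21.7, 24.0, 60.6 and 12.6 CPM for Isg15 and 81.1, 19.7, 25.0 and 9.31 CPM for Ifit1, so that the H-CM range reached into the TME-CM range. Rtp4, a receptor transporter protein, rose by 6.84 ± 0.86 and Usp18, the protease that removes ISG15, by 5.10 ± 0.63. Ifitm3, a membrane protein that restricts virus entry, was the member with the most counts, with 2162, 2624, 2452 and 2116 CPM against 385, 427, 333 and 382 CPM and 1798, 927, 983 and 645 CPM in H-CM (log2 fold change 2.61 ± 0.24, adjusted p = 6.15e-07).

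The factors that transmit interferon signals were among the higher genes. Stat2 and Irf9, which act together in the complex ISGF3, rose by 3.55 ± 0.40 and 2.98 ± 0.28, and Irf1 and Irf7 by 2.34 ± 0.27 and 3.88 ± 0.67. For Irf9, the 4 H-CM libraries at 123, 80.3, 64.2 and 54.2 CPM also lay above the 4 unstimulated ones at 14.7, 8.56, 19.4 and 13.3 CPM.

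Guanylate-binding proteins and immunity-related GTPases, effectors that act on the membranes around intracellular pathogens, were all higher, and the median log2 fold change of the 10 was 4.95. Gbp2 rose from 6.31, 7.27, 0 and 2.08 CPM to 75.6, 221, 263 and 294 CPM (log2 fold change 6.01 ± 0.95, adjusted p = 0.00374). Iigp1 rose from 17.9, 26.1, 9.84 and 7.36 CPM to 78.3, 659, 702 and 552 CPM (log2 fold change 5.10 ± 0.91, adjusted p = 0.00857), and Igtp from 9.46, 11.1, 3.83 and 2.78 CPM to 39.1, 239, 174 and 145 CPM. TME-CM replicate 1 was again the lowest of its group in Gbp2, Iigp1 and Igtp, and still above every unstimulated library. The calls of Gbp2 and Iigp1 were lost with the 8 compared libraries alone and the replicate number as a block, an alternative chosen after seeing the data (adjusted p = 0.0707 and 0.107). Gbp3 had the smallest p of the family, with 40.6, 61.3, 98.2 and 69.9 CPM against 1.052, 0.428, 0.547 and 1.25 CPM (log2 fold change 6.20 ± 0.50, adjusted p = 1.44e-07). Gbp4 had no count in unstimulated EGCs and was at least 63.6-fold higher, and the call of Gbp5 was lost without any of 3 libraries (adjusted p = 0.0755 without unstimulated 12 h replicate 4). Members of this family resemble each other, Igtp and Irgm2 share 162 exon bases, and reads on several loci were discarded, so values of single members are uncertain. Gm4951, named because it had one of the 15 largest changes, had no count in unstimulated EGCs and 4.84, 24.0, 26.8 and 22.5 CPM in TME-CM, at least 94.5-fold higher (adjusted p = 0.00533). Its H-CM libraries read 10.7, 3.58, 0 and 0.739 CPM, with replicate 1 above the lowest TME-CM library.

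The MHC class I pathway, which presents peptides to CD8 T cells, was higher in large part. B2m, the invariant chain, read 1621, 2105, 2626 and 2574 CPM against 1102, 1169, 1062 and 1168 CPM (log2 fold change 0.99 ± 0.22, adjusted p = 0.00765), and the heavy chains H2-K1 and H2-D1 rose by 1.98 ± 0.46 and 1.40 ± 0.30. The peptide transporter Tap1 rose by 3.03 ± 0.45 and its partner tapasin, Tapbp, from 95.5 ± 4.25 to 407 ± 46.0 CPM (SD, n = 4). The immunoproteasome subunits Psmb9 and Psmb10 rose by 2.38 and 2.32. In the whole list, 9 of 14 genes were higher and 0 lower. The calls of H2-K1 and Psmb9 were lost without any of 3 and 6 libraries (adjusted p = 0.0636 for H2-K1 without unstimulated 12 h replicate 3 and 0.221 for Psmb9 without TME-CM 12 h replicate 4), and Tap1 and Psmb9 share 212 exon bases. In the 36-library model H2-K1, Tap1 and Psmb9 were not called (adjusted p = 0.381 for H2-K1, 0.0582 for Tap1 and 0.417 for Psmb9).

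For 3 of the interferon-induced genes the promoter is printed because it holds TTTC, any 2 bases and TTTC on either strand, the core of the interferon-stimulated response element (ISRE) that ISGF3 and IRF factors bind. Capitals mark the matches, which in Isg15 overlap each other. The windows are chr4:156200819-156201068, - strand for Isg15, chr19:34640639-34640888, + strand for Ifit1 and chr3:142620413-142620662, + strand for Gbp2, on the same build and cut as above.
Isg15: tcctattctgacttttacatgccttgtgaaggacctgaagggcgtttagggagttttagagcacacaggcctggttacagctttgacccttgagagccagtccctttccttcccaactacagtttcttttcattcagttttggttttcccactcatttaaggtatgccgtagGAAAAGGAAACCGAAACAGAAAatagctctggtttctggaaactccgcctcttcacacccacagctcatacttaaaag
Ifit1: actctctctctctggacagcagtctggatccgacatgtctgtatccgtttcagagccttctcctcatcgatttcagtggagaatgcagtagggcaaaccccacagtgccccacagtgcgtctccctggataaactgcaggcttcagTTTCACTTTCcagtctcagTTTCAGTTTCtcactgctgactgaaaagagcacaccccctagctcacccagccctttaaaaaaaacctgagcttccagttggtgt
Gbp2: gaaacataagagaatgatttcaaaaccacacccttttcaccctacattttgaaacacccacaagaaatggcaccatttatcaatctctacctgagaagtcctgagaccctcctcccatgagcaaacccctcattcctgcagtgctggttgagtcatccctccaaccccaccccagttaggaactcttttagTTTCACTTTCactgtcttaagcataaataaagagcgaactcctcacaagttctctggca
This pattern was held by 294 of 9322 tested genes with a window (3.15%), by 40 of 256 of those called higher (15.6%) and by 3 of 161 of those called lower (1.86%). Gbp3 and Gbp4 were given the same window on chromosome 3, though Gbp4 is annotated on chromosome 5, and both count among the 40. In the interferon-stimulated list, 6 of 20 genes with a window held the pattern.

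A further 3 letter patterns were searched on both strands of the same windows. TTCNNNGAA, the palindrome bound by STAT dimers, was held by 6.97% of all tested genes with a window, by 12.1% of the higher genes and by 6.83% of the lower genes. TTGCNNAA, a form of the C/EBP site, was in 8.71%, 18.8% and 4.97%, in the same order, again with Gbp3 and Gbp4 both counted. TGANTCA, the AP-1 site, was in 5.56%, 12.9% and 9.94%. No test was made of these shares.

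Of 11 tested genes of arginine and nitric oxide metabolism, 5 were higher and 0 lower. Nos2, inducible nitric oxide synthase (chromosome 11, 78920787 to 78960254, + strand), read 45.7, 37.3, 57.6 and 117 CPM in TME-CM, 1.93, 0.717, 0.238 and 0.148 CPM in H-CM and 1.58, 0, 0 and 0 CPM in unstimulated EGCs, where 3 counts were seen in all. The ratio of TME-CM to unstimulated was 329 (95% counting interval 112 to 1597, adjusted p = 3.56e-06). Around this enzyme, Gch1, which makes its cofactor tetrahydrobiopterin, rose by 3.17 ± 0.33, the arginine transporter Slc7a2 by 2.93 ± 0.39, the mitochondrial arginase Arg2 by 5.61 ± 0.85 and Odc1, the first enzyme of polyamine synthesis, by 1.85 ± 0.30, which was not called in the 36-library model (adjusted p = 0.0769). Irg1, which makes itaconate, had no count in unstimulated EGCs and 6.52, 4.14, 4.33 and 14.9 CPM in TME-CM, at least 37.8-fold higher (adjusted p = 0.00441). Its H-CM libraries read 3.85, 4.66, 0 and 0.886 CPM and reached into the TME-CM range. Of 15 tested genes of prostaglandin synthesis and breakdown, 2 were higher. Ptges, the inducible prostaglandin E synthase, rose from 5.78, 15.4, 7.11 and 4.44 CPM to 90.9, 84.5, 65.6 and 122 CPM (log2 fold change 3.53 ± 0.40, adjusted p = 1.22e-05). Ptgs2, cyclooxygenase 2, which feeds it, read 497, 307, 459 and 636 CPM against 226, 166, 166 and 312 CPM, so that the lowest TME-CM library was below the highest unstimulated one (log2 fold change 1.12 ± 0.25, adjusted p = 0.00803), and its adjusted p was 0.0587 without unstimulated 12 h replicate 3.

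Sod2, the mitochondrial superoxide dismutase (chromosome 17, 13006846 to 13040063, + strand), had the second smallest p of the higher genes, with 872, 727, 745 and 839.9 CPM against 81.0, 69.3, 77.9 and 69.3 CPM and 199, 92.7, 103 and 93.2 CPM in H-CM (log2 fold change 3.42 ± 0.23, adjusted p = 1.78e-08). The replicates of each group differed by far less than the groups did. With it, 5 of 17 genes of the NRF2 and antioxidant list rose. Hmox1, heme oxygenase, rose from 61.0, 78.3, 68.3 and 68.8 CPM to 229.6, 224, 238 and 166 CPM, and was at 255, 171, 565 and 170.2 CPM in H-CM, with 2 of 4 libraries above every TME-CM library. Slc7a11, the cystine importer, rose by 3.38 ± 0.37 (adjusted p = 6.87e-06).

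Some enzymes that cut the extracellular matrix rose, and inhibitors moved both ways. Mmp9, a gelatinase, went from 15.8, 35.1, 21.6 and 25.4 CPM to 622, 329.7, 531 and 543 CPM, with 146, 106, 28.1 and 43.6 CPM in H-CM (log2 fold change 4.37 ± 0.48, adjusted p = 5.48e-05). Mmp3, stromelysin 1, went from 8.94, 2.14, 11.5 and 11.9 CPM to 443, 207, 368 and 518 CPM (log2 fold change 5.40 ± 0.97, adjusted p = 0.00885), and its H-CM libraries ranged from 1.66 to 94.9 CPM. Mmp13 and Mmp10 rose by 4.58 ± 0.46 and 2.24 ± 0.33. The inhibitor Timp1 rose from 129, 116, 135 and 148 CPM to 1287, 708, 825 and 1203 CPM, while 3 of 4 H-CM libraries read less than every unstimulated one, at 210.4, 93.4, 102 and 105 CPM (log2 fold change over unstimulated 2.93 ± 0.26, adjusted p = 4.78e-07). Timp3, the inhibitor that binds to the matrix, fell from 685, 561, 709.7 and 588 CPM to 276, 287, 258 and 192 CPM (log2 fold change -1.33 ± 0.17, adjusted p = 3.63e-05), though it shares 1733 exon bases with Syn3 and the strand setting of the counts is not stated. Of 14 genes in this list, 5 were higher and 1 lower, and the median log2 fold change was 0.25.

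Of 14 tested serpins and related inhibitors, 5 were higher. These were Serpina3n, Serpina3g, Serpina3f, Serping1 and Slpi, with Serpina3g losing its call without any of 7 libraries (adjusted p = 0.0942 without unstimulated 12 h replicate 3), in the 36-library model (adjusted p = 0.104) and with the 8 compared libraries alone (adjusted p = 0.0805).

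Matrix proteins held 1 higher call and 3 lower calls among 29 tested, beside 2.67% and 1.74% of all genes tested. Dcn, the small proteoglycan decorin, rose from 824, 945, 934 and 1089 CPM to 1755, 1841, 1799 and 2493 CPM (log2 fold change 1.06 ± 0.17, adjusted p = 4.40e-04), while its H-CM libraries read 877, 812, 704 and 1087 CPM. Fn1, fibronectin, and the minor collagens Col11a1 and Col12a1 fell, with log2 fold changes of -0.76 ± 0.18, -0.96 ± 0.26 and -1.11 ± 0.25. These 3 calls were lost without single libraries (adjusted p = 0.0858 for Fn1 and 0.0549 for Col12a1 without unstimulated 12 h replicate 4, and 0.146 for Col11a1 without TME-CM 12 h replicate 4). In the fibroblast and mesenchymal list, Dcn and Pdgfra, the PDGF receptor alpha, were the 2 of 11 called, Pdgfra at 76.6, 63.8, 92.9 and 63.1 CPM against 33.7, 18.4, 26.5 and 23.6 CPM, and the sum of the 12 listed genes lay between 6174 and 7489 CPM in TME-CM and between 6024 and 7237 CPM in unstimulated EGCs. The 36-library model called neither these 3 genes nor Pdgfra (adjusted p = 0.136 for Fn1, 0.124 for Col11a1, 0.0539 for Col12a1 and 0.0732 for Pdgfra).

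Of 18 tested adhesion molecules, 4 were higher and 1 was lower. Vcam1, the ligand of the integrin VLA-4, went from 5.78, 12.8, 6.56 and 4.86 CPM to 25.5, 55.1, 44.2 and 64.4 CPM (log2 fold change 2.69 ± 0.35, adjusted p = 4.44e-05), and Icam1, the ligand of LFA-1, from 3.15, 0, 5.74 and 2.78 CPM to 35.8, 53.0, 41.1 and 32.5 CPM (log2 fold change 3.72 ± 0.58, adjusted p = 4.08e-04). The heparan sulfate proteoglycans Sdc1 and Sdc4 rose by 1.82 ± 0.23 and 1.17 ± 0.31, with Sdc4 losing its call without any of 7 libraries (adjusted p = 0.137 without unstimulated 12 h replicate 4). Ncam1, the neural cell adhesion molecule, fell from 445, 329, 386 and 489.5 CPM to 213, 159, 201 and 187 CPM (log2 fold change -1.12 ± 0.20, adjusted p = 0.00122). Its H-CM values of 185, 327, 223 and 330.2 CPM overlapped both groups.

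Genes of glucose uptake, glycolysis and the hypoxia response were higher in part, with 13 of 28 higher, 0 lower and a median log2 fold change of 0.87. Hif1a, the oxygen-regulated subunit of HIF-1, read 528, 350.0, 432 and 387 CPM in TME-CM, 303, 142, 96.3 and 155 CPM in H-CM and 134, 107, 109 and 131 CPM in unstimulated EGCs (log2 fold change over unstimulated 1.82 ± 0.26, adjusted p = 1.24e-04). This gene is not among the 28 of the list and was named after its values were seen. The glucose transporter Slc2a1 rose by 1.31 ± 0.25, hexokinase Hk2 by 1.17 ± 0.21, phosphofructokinase Pfkl by 1.48 ± 0.20 and lactate dehydrogenase Ldha by 1.04 ± 0.22. The lactate carriers Slc16a3 and Slc16a1 rose from 15.5 ± 3.69 to 79.0 ± 7.31 CPM and from 18.04 ± 5.58 to 72.9 ± 19.8 CPM (SD, n = 4). Bnip3, a HIF target that acts in mitophagy, read 96.2, 108, 78.6 and 90.1 CPM against 24.2, 23.5, 18.6 and 17.9 CPM (log2 fold change 2.16 ± 0.23, adjusted p = 3.56e-06). Pdk1, which holds pyruvate out of mitochondria, rose by 1.61 ± 0.37, and its adjusted p was 0.0583 without unstimulated 12 h replicate 4 and 0.742 in the 36-library model.

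Among transcription factors and early response genes, 5 of 22 were higher and 1 lower. Cebpd and Cebpb, C/EBP factors of the acute-phase response, rose from 9.99, 14.1, 25.7 and 25.0 CPM to 323, 237, 330.2 and 357 CPM and from 24.2, 31.7, 35.3 and 57.2 CPM to 135, 125, 188 and 232 CPM. Their log2 fold changes were 4.01 ± 0.32 (adjusted p = 1.44e-07) and 2.17 ± 0.28 (adjusted p = 3.34e-05). Ier3, an early response gene that modulates cell survival, rose from 98.9, 115, 106 and 110.1 CPM to 907, 723, 677 and 731 CPM, with little spread among the unstimulated libraries (log2 fold change 2.82 ± 0.25, adjusted p = 5.00e-07). Junb, an AP-1 subunit, rose by 1.25 ± 0.25, and Klf2, a factor that restrains NF-kB responses, fell from 74.1, 85.1, 117 and 94.7 CPM to 37.9, 44.7, 30.8 and 38.0 CPM (log2 fold change -1.30 ± 0.20, adjusted p = 1.98e-04).

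Contractile genes fell together. Of 11 tested smooth muscle markers, 8 were lower and 0 higher, and all 11 fold changes were negative, with a median of -0.99. The sum of the 12 listed genes lay between 4748 and 5864 CPM in TME-CM, between 6079 and 9447 CPM in H-CM and between 9507 and 9936 CPM in unstimulated EGCs. Fewer cells of a type and less RNA per cell cannot be told apart in bulk RNA, and the summed enteric glia markers, given above, overlapped between the groups. Acta2, smooth muscle actin, read 2133, 2345, 2081 and 2229.9 CPM against 3449, 3758, 3704 and 3857 CPM (log2 fold change -0.75 ± 0.15, adjusted p = 0.00274), and Mylk, the kinase that activates smooth muscle myosin, 564, 677, 669.9 and 333 CPM against 1811, 1886, 1614 and 1265 CPM (log2 fold change -1.55 ± 0.24, adjusted p = 2.28e-04). Lmod1, an actin nucleator of smooth muscle, fell from 212, 117, 108 and 133 CPM to 26.1, 16.2, 34.3 and 13.9 CPM, with 27.2, 122, 77.0 and 68.2 CPM in H-CM (log2 fold change -2.63 ± 0.39, adjusted p = 3.40e-04). None of these 3 genes overlapped between TME-CM and unstimulated EGCs. The other 5 called were desmin, Des (-1.71 ± 0.29), smooth muscle myosin Myh11 (-1.51 ± 0.29), calponin Cnn1 (-1.38 ± 0.21), Tagln (-0.99 ± 0.21) and Smtn (-0.78 ± 0.21), each with its log2 fold change. Smtn lost its call without any of 6 libraries (adjusted p = 0.168 without unstimulated 12 h replicate 3), and Tagln shares 1241 exon bases with Gm48529. In the 36-library model Acta2, Myh11 and Smtn were not called (adjusted p = 0.0785 for Acta2, 0.14 for Myh11 and 0.628 for Smtn).

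**Figure D4:**
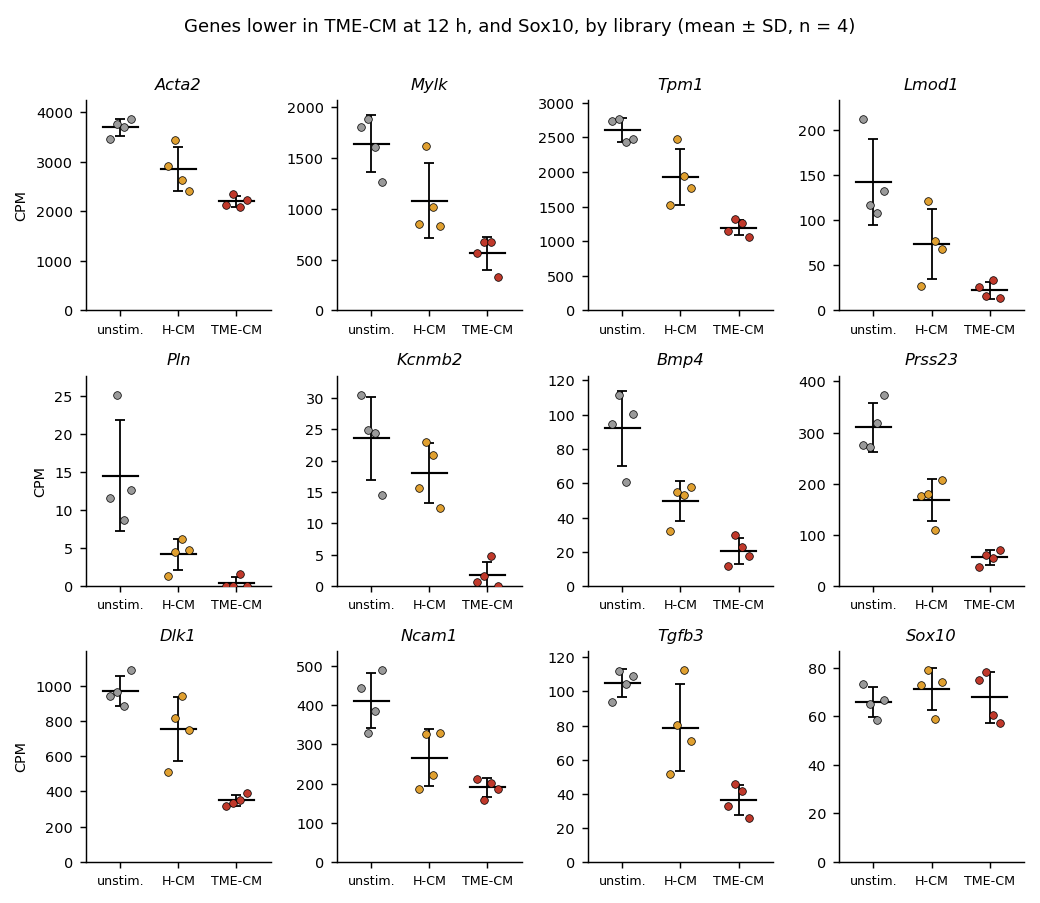
CPM (vertical, from 0) of 11 genes called lower in TME-CM and of Sox10, one point for each of the 4 libraries of the unstimulated, H-CM and TME-CM groups at 12 h (horizontal), with the mean and SD. The TME-CM points lie below all unstimulated points for the 11 lower genes, H-CM lies between the other groups for Prss23, and the 3 groups overlap for Sox10.

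Pln, phospholamban, the brake on the sarcoplasmic calcium pump, was at 11.6, 25.2, 8.75 and 12.6 CPM in unstimulated EGCs and at 0, 0, 1.65 and 0 CPM in TME-CM (log2 fold change -4.84 ± 0.86, adjusted p = 0.00108); it shares 1644 exon bases with Gm47644. Kcnmb2, a subunit of the large-conductance calcium-activated potassium channel, was at 30.5, 24.8, 24.3 and 14.6 CPM and 0.631, 1.66, 4.75 and 0 CPM (log2 fold change -3.65 ± 0.59, adjusted p = 4.32e-04), with 15.7, 22.9, 20.9 and 12.4 CPM in H-CM. Pln had 8 counts in all in TME-CM and 204 in unstimulated EGCs. Jph2, a junctophilin that holds calcium release sites at the membrane, fell, with a log2 fold change of -2.45 ± 0.35, as did Hspb7 and Popdc2, genes of striated and smooth muscle, with -2.25 ± 0.41 and -2.25 ± 0.38, calls that were lost in the 36-library model (adjusted p = 0.0571 for Hspb7 and 0.0538 for Popdc2). The mechanosensitive channel Piezo2 went from 119.9, 81.7, 110.2 and 142 CPM to 42.7, 23.6, 55.9 and 31.2 CPM (log2 fold change -1.55 ± 0.28, adjusted p = 0.00106). Chrm2, the M2 muscarinic acetylcholine receptor, had a log2 fold change of -2.16 ± 0.55, a call lost without any of 8 libraries (adjusted p = 0.119 without TME-CM 12 h replicate 4).

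Tpm1, tropomyosin 1, went from 2743, 2766, 2432 and 2472 CPM to 1146, 1318, 1261 and 1064 CPM (log2 fold change -1.12 ± 0.16, adjusted p = 1.31e-04) and Myh10, nonmuscle myosin IIB, from 952, 557, 885 and 756 CPM to 257, 162, 290.0 and 115 CPM (log2 fold change -1.93 ± 0.27, adjusted p = 8.87e-05). Ahnak, a giant membrane-associated scaffold protein, read 266, 171, 278 and 153 CPM against 918, 448, 879.7 and 932 CPM. Dlc1, an inhibitor of RhoA, and Ehd4, an endocytic recycling protein, fell, with log2 fold changes of -1.42 ± 0.20 and -1.57 ± 0.19. Srf itself read 70.5, 65.9, 67.3 and 53.2 CPM against 98.3, 136, 92.7 and 129 CPM, with 62.2, 79.6, 95.1 and 76.7 CPM in H-CM (log2 fold change -0.83 ± 0.20, adjusted p = 0.0124, 0.0608 without unstimulated 12 h replicate 4 and 0.615 in the 36-library model).

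The Srf promoter (chr17:46556163-46556412, - strand, GRCm38.p6, the 250 bases before the start) is shown because it holds 2 matches to the CArG box, the element that SRF binds, in capitals.
Srf: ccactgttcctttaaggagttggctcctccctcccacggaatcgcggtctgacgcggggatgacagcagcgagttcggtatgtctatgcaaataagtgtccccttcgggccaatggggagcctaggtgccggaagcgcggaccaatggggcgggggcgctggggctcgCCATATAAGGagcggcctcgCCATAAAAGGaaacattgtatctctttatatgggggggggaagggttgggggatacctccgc
A CArG box was held by 141 of 9322 tested genes with a window (1.51%), by 10 of 161 of those called lower (6.21%) and by 1 of 256 of those called higher (0.391%). The 10 lower genes, picked out after the search, were Cnn2, Fhl1, Fhl2, Lurap1l, Meg3, Myl9, Myo1e, Myom1, Srf and Vcl. Lurap1l and Srf were not called in the 36-library model, and the others of the 10 were not checked in it. None of the 8 of 11 smooth muscle markers with a window held one within these 250 bases.

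Signaling and guidance genes of the developing gut and nervous system made up a further part of the lower genes. Bmp4 (chromosome 14, 46383520 to 46390669, - strand), a morphogen of the gut wall, fell from 94.6, 112, 61.0 and 101 CPM to 11.8, 29.8, 22.9 and 17.8 CPM, with 32.2, 54.8, 53.0 and 57.9 CPM in H-CM (log2 fold change -2.17 ± 0.28, adjusted p = 3.93e-05). Noggin, Nog, an antagonist that binds BMPs, fell from 85.7, 69.7, 92.4 and 67.7 CPM to 32.2, 32.3, 37.8 and 42.4 CPM (log2 fold change -1.12 ± 0.20, adjusted p = 8.52e-04). The H-CM range of Nog, 71.2, 95.0, 73.0 and 81.7 CPM, lay around the unstimulated values. Grem1, another BMP antagonist, rose instead, from 307, 273, 289 and 281 CPM to 867, 666, 896 and 586 CPM, with 559, 493, 778 and 411 CPM in H-CM (log2 fold change 1.39 ± 0.20, adjusted p = 9.57e-05). The other 23 of 26 tested BMP pathway genes were not called. Dlk1, an imprinted ligand-like protein of the Notch family (chromosome 12, 109452823 to 109463336, + strand), fell from 943, 968, 885 and 1089 CPM to 318, 336, 352 and 391.6 CPM without overlap (log2 fold change -1.47 ± 0.18, adjusted p = 2.04e-05).

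Of 29 tested axon guidance genes 5 were lower and 0 higher. Ntn4, a netrin, read 1.89, 0, 3.71 and 3.41 CPM against 20.5, 12.0, 34.4 and 11.8 CPM (log2 fold change -3.03 ± 0.63, adjusted p = 0.00426), and Sema3a, a repellent semaphorin, 15.4, 13.7, 17.1 and 11.003 CPM against 52.1, 33.4, 34.4 and 49.4 CPM (log2 fold change -1.56 ± 0.31, adjusted p = 0.00274). The H-CM libraries of Sema3a, at 15.95, 25.6, 10.5 and 27.9 CPM, were also below every unstimulated library. Nrp1, the semaphorin co-receptor, Sema5a and the ephrin receptor Ephb3 fell, with log2 fold changes of -0.66 ± 0.18, -1.0007 and -1.19 ± 0.25. Nrp1 and Sema5a each lost the call without any of 6 libraries (adjusted p = 0.164 for Nrp1 without unstimulated 12 h replicate 1 and 0.172 for Sema5a without unstimulated 12 h replicate 3). Only Ntn4 of these 5 was called in the 36-library model (adjusted p = 0.143 for Sema3a, 0.223 for Nrp1, 0.358 for Sema5a and 0.708 for Ephb3).

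Genes of glial identity held 1 lower call and 0 higher calls among 23 tested. The one was Nes, nestin, an intermediate filament of neural progenitors, at 79.1, 67.5, 72.9 and 57.6 CPM against 153, 136, 145 and 152 CPM (log2 fold change -1.08 ± 0.18, adjusted p = 6.34e-04). S100b, a calcium-binding protein of glia, had the most negative fold change of the 7 defining markers, with 37.9, 70.8, 32.2 and 28.6 CPM against 64.1, 90.7, 68.1 and 58.7 CPM, and did not pass (log2 fold change -0.74 ± 0.29, adjusted p = 0.222). Erbb3 stood at a log2 fold change of 0.07 ± 0.33, Foxd3 at -0.34 ± 0.40 and Entpd2 at -0.28 ± 0.34, none of them called. Ntsr1, the neurotensin receptor, fell from 39.4, 28.7, 21.6 and 37.3 CPM to 8.21, 7.46, 13.002 and 11.5 CPM (log2 fold change -1.64 ± 0.33, adjusted p = 0.0036), and its H-CM libraries, apart from replicate 1, were at unstimulated levels (13.5, 39.8, 31.6 and 37.4 CPM). The call of Ntsr1 was lost in the 36-library model (adjusted p = 0.345). Sparcl1, a secreted matrix protein of glia, read 377, 418, 467 and 266 CPM against 601, 675, 518 and 463 CPM, overlapped and was not called (adjusted p = 0.153).

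Further genes among the 15 with the largest decreases or the 10 with the smallest p served varied functions. Prss23, a secreted serine protease, had the smallest p of all lower genes, with 36.6, 61.7, 54.7 and 71.0 CPM against 275, 272, 318 and 374 CPM and 176, 180.5, 110.3 and 207 CPM in H-CM (log2 fold change -2.47 ± 0.23, adjusted p = 7.66e-07). It shares 864 exon bases with another annotated gene, Prss23os. The antisense gene Gm16010 fell from 60.5, 59.0, 59.9 and 45.7 CPM to 13.9, 15.3, 7.64 and 7.60 CPM, and shares 650 exon bases with Spsb4, so that reads of the pair may not be told apart. Npr3, the clearance receptor for natriuretic peptides, and Fbn2, fibrillin 2, fell, with log2 fold changes of -2.24 ± 0.28 and -1.56 ± 0.19. The progesterone receptor Pgr had a log2 fold change of -2.33 ± 0.56, Angptl1 of -2.31 ± 0.65, Lurap1l of -2.18 ± 0.36 and Wscd2 of -2.76 ± 0.50. Pgr and Angptl1 lost the call without single libraries (adjusted p = 0.0635 for Pgr without unstimulated 12 h replicate 3 and 0.163 for Angptl1 without unstimulated 12 h replicate 4). The 36-library model called none of Pgr, Angptl1, Lurap1l and Wscd2 (adjusted p = 0.305 for Pgr, 0.339 for Angptl1, 0.068 for Lurap1l and 0.115 for Wscd2), and Angptl1 was also not called with no filter on low counts (adjusted p = 0.0501) or with the 8 compared libraries alone (0.0546). Among the largest increases, Sprr2e, a small proline-rich protein of epithelial barriers, had no count in unstimulated EGCs and 13.9, 4.97, 6.40 and 11.3 CPM in TME-CM, at least 48.3-fold higher (adjusted p = 0.00119).

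The response at 12 h was set against that at 6 h and 24 h, which share no library with it. A gene's effect is its log2 fold change of TME-CM over unstimulated EGCs at one time. At 6 h, 42 of 9256 genes tested (0.454%) were called, and at 24 h 1210 of 12713 (9.52%). Libraries of 6 h held 256453 to 4631102 counts in unstimulated EGCs and 1321201 to 5244763 in TME-CM. The H-CM libraries of 6 h, which shared in the spread of that fit, held 13518 to 2587492 counts, with 13518 in replicate 4. In fits without single libraries, added after seeing the data, the count at 6 h was 26 when H-CM replicate 4 was left out. Leaving out TME-CM replicate 2 gave 105, replicate 3 gave 22 and replicate 4 gave 26, leaving out unstimulated replicate 1 gave 19 and replicate 2 gave 21, and leaving out any other library gave 30 to 54. The change between times used no H-CM library. A change of the effect was tested in one model of both times, so that it can differ slightly from the difference of the 2 effects. From 6 h to 12 h it was called for 7 of 12126 genes (0.0577%, 660 at an unadjusted p under 0.05, edgeR), and 6 of them went up. Saa3 had an effect of 0.10 ± 0.96 at 6 h and 7.87 ± 0.86 at 12 h, a change of 7.66 ± 0.99 (adjusted p = 0.00582). Lcn2 went from 0.76 ± 0.93 to 7.83 ± 0.73 (change 6.90 ± 0.88, adjusted p = 5.82e-04). Mmp9 went from 0.79 ± 0.61 to 4.37 ± 0.48 (change 3.43 ± 0.53, adjusted p = 0.00358) and Mmp3 from 1.60 ± 0.70 to 5.40 ± 0.97 (change 3.67 ± 0.62, adjusted p = 0.00734). Saa3 and Lcn2 are secreted acute-phase proteins and Mmp9 and Mmp3 secreted proteases. Ccl7, a chemokine already called at 6 h with an effect of 3.14 ± 0.48, changed by 2.95 ± 0.52 (adjusted p = 0.0126). The call of Ccl7 was absent without unstimulated 6 h replicate 2 or without TME-CM 12 h replicate 4, where 4 genes were called. In all, 18 genes were called without unstimulated 6 h replicate 4 and 14 without TME-CM 6 h replicate 2. The remaining 2 of the 7 were Ctsh, cathepsin H, with a change of 9.04, and Gm13889, with -3.001, and both are named only because they were called.

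The chemokine and interferon effects of 6 h were already large. Cxcl1 had an effect of 5.08 ± 0.57 at 6 h (adjusted p = 8.93e-06), Cxcl10 of 6.58 ± 0.92 (8.63e-04), Isg15 of 5.31 ± 0.90 (0.00214) and Gbp2 of 4.47 ± 0.60 (1.21e-04), and all 4 kept the call at 6 h without any single library of that time. A change from 6 h to 12 h was not called for these 4 genes, which does not show that there was none. For Cxcl1 this change was 3.21 ± 0.68 (adjusted p = 0.0717), and it was called without unstimulated 6 h replicate 4. On simulated data the test of this change recovered only 7.22% of the genes given a log2 change of 2.

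From 12 h to 24 h the effect changed for 3 of 12679 genes (0.0237%, 443 at an unadjusted p under 0.05, edgeR). Acta2 fell further, from -0.75 ± 0.15 at 12 h to -1.91 ± 0.14 at 24 h (change -1.15 ± 0.18, adjusted p = 0.0106). Saa3 rose further, to 9.02 ± 0.86 (change 1.16 ± 0.21, adjusted p = 0.0398). The third was Gstm1, a glutathione transferase, with a change of 1.31. The count of 3 was 0 without unstimulated 12 h replicate 1 (453 at an unadjusted p under 0.05, edgeR), 1, Acta2, without unstimulated 12 h replicate 3, unstimulated 24 h replicate 2 or 3, TME-CM 12 h replicate 2, 3 or 4, or TME-CM 24 h replicate 1 or 3, and 6 without TME-CM 24 h replicate 2. Effects at 24 h for other leading genes are given as values: 7.24 ± 0.63 for Cxcl1, 9.09 ± 0.90 for Lcn2, 4.18 ± 0.46 for Isg15 and -1.99 ± 0.14 for Dlk1.

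**Figure D5:**
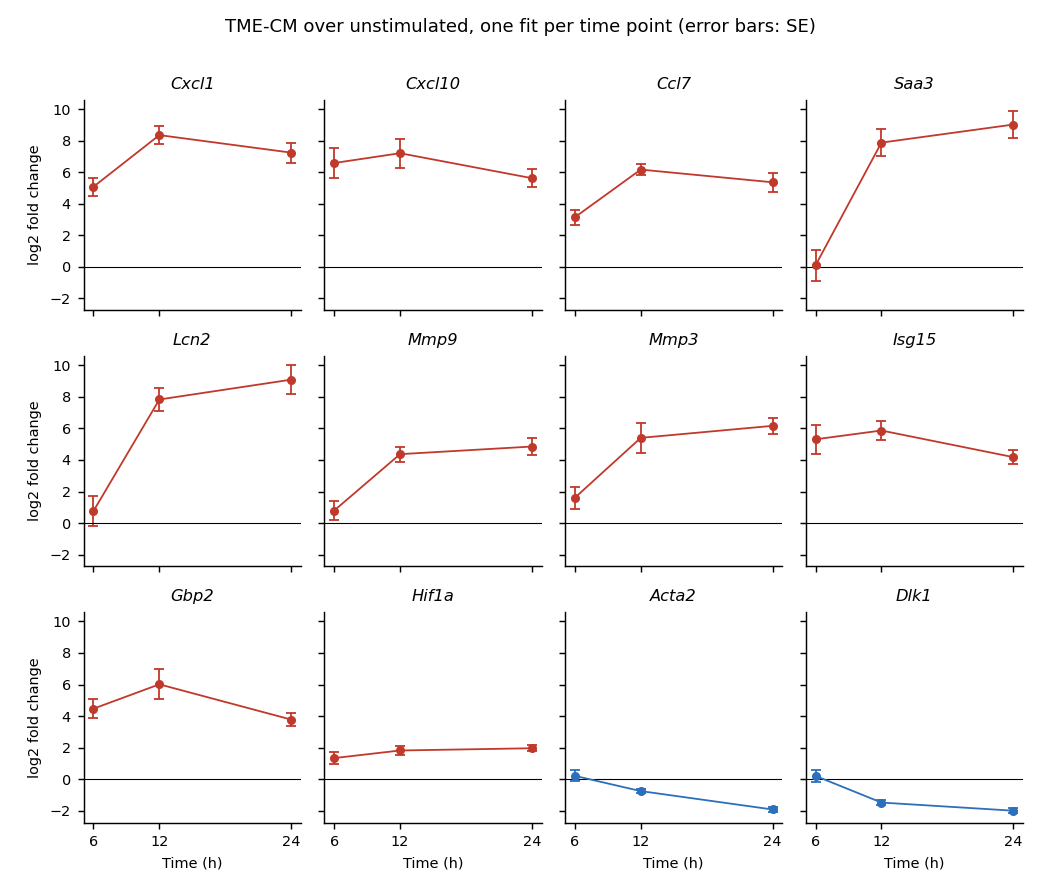
Log2 fold change of TME-CM over unstimulated EGCs (vertical) at the 3 times in hours (horizontal) for 12 genes, with SE bars, from one model of 12 libraries per time point. Saa3, Lcn2, Mmp9 and Mmp3 are near 0 to 1.6 at 6 h and above 4 at 12 h, while Cxcl1, Cxcl10, Isg15 and Gbp2 are above 4 at 6 h, and Acta2 and Dlk1 go below 0 from 12 h.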

How the data were processed

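Cultured mouse EGCs of 9 groups (3 treatments at 3 times, 4 libraries each) were measured by QuantSeq 3′ mRNA sequencing. The deposited values are raw read counts per gene, which the authors made with FastQC 0.11.7, fastq-mcf, HISAT2 on mm10, SAMtools 1.5 and HT-seq Count. Reads mapping to several loci had been discarded by the authors. The annotation, the strand setting and the use of molecular identifiers are not given in the sources used here. Of 43472 entries, 12156 passed edgeR's filterByExpr (minimum count 10). The 12 libraries of 12 h were fitted with TMM factors and edgeR 4.0.16's quasi-likelihood test (robust), with Benjamini-Hochberg adjustment and a threshold of 0.05, in R 4.3.3. H-CM libraries shared in the estimate of the spread. CPM were computed from the counts on TMM-scaled library sizes. The change of the effect between times was an interaction term over 16 libraries. Counting intervals cover counting error only and are at the 95% level. Tested on simulated data for the comparison at 12 h, the fit recovered 79% of 195 genes given a log2 change of 2, with 6 false calls among 11889 genes. For the change from 12 h to 24 h the share was 65.3% of 196 genes (12416 genes), and for that from 6 h to 12 h it was 7.22% of 194 (11719 genes).

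The genes named were taken from the largest changes among non-overlapping genes whose higher group averaged 5 CPM or more (up to 15 in each direction), the 10 smallest p in each direction, called members of the gene lists and a set of genes of interest to the study. The comparison and its gene lists were chosen with earlier results of these data known. Positions are from GENCODE vM21 (GRCm38) and promoter windows from RefSeq (GRCm38.p6), which 9322 tested genes matched. Of 202 named genes, 63 share exon bases with another annotated gene. None of the 12 pairs of libraries within TME-CM and within unstimulated EGCs at 12 h were duplicates, and other pairs were not checked. Alternatives were DESeq2 1.42.0 and its size factors, other filters on low counts, a replicate block, other sets of libraries, a test against a fold of 1.5, and leaving out each library. H-CM was compared with neither group by a test here. A few genes were left out of the text.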

Additional observations from a re-analysis of the deposited data

Results flagged for a closer look

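In 370 groups of 4 libraries of the named genes, 18 (4.86%) held a library that stood apart from the other 3 by Dixon's criterion at the 95% level, and chance gives such a gap in about 1 group in 20. In TME-CM, replicate 4 stood apart for Ccl5 at 53.7 CPM (the other 3 at 14.1 to 20.2), for Adora2b at 29.1 CPM, for Dcn at 2493 CPM (the others at 1755 to 1841) and for Myh11 at 21.0 CPM (38.9 to 40.9), and replicate 2 for Slc40a1 at 3.31 CPM (8.26 to 8.42). Among the unstimulated libraries, replicate 4 stood apart for Lbp at 2.36 CPM, Hk2 at 106 CPM, Gm16010 at 45.7 CPM, Hspb7 at 26.5 CPM and Ctnnb1 at 709.8 CPM. Unstimulated replicate 2 stood apart for Cxcl16 at 19.2 CPM, Mt1 at 457 CPM, Ahnak at 448 CPM and Cartpt at 10.7 CPM. Unstimulated replicate 3 did so for Pdk1 at 14.2 CPM, Junb at 49.8 CPM and Nkd2 at 56.6 CPM, and replicate 1 for Slc7a2 at 12.1 CPM.

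For 6 of the named genes the effect of TME-CM over unstimulated EGCs differed between times by the interaction test (edgeR, adjusted over all genes tested). From 6 h to 12 h it was larger by 7.66 for Saa3 (adjusted p = 0.00582), by 6.90 for Lcn2 (5.82e-04), by 3.67 for Mmp3 (0.00734), by 3.43 for Mmp9 (0.00358) and by 2.95 for Ccl7 (0.0126), all on the log2 scale. From 12 h to 24 h it was larger by 1.16 for Saa3 (adjusted p = 0.0398), and it changed by -1.15 for Acta2 (adjusted p = 0.0106).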

How the results depend on the processing

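The 536 genes called at 12 h (325 higher, 211 lower) numbered 533 with DESeq2 size factors, 649 with no filter on low counts, 509 with a filter of 10 CPM in 4 libraries, 706 with DESeq2 (534 of the 536 among them) and 652 with the 8 compared libraries alone. With all 36 libraries in one model, 288 genes were called, 64 of them lower, and a test against a fold of 1.5 called 285, 62 of them lower. Leaving out each library gave 414 to 738 calls, with 276 to 447 higher and 138 to 291 lower. With the replicate number as a block, 519 genes were called, 494 of them among the 536, and with the block the change of the effect was called for 3 genes from 12 h to 24 h and for 5 from 6 h to 12 h. The labels do not say that the numbers pair the samples, and the deviations of same-numbered TME-CM and unstimulated libraries correlated at 0.075, 0.204, 0.022 and 0.082 across genes, with TME-CM replicate 3 closest to unstimulated replicate 4 (0.266). An alternative chosen after seeing the data, the 8 libraries with the block, called 849 genes, 383 of them lower, and another, DESeq2 with the block, called 705. The change from 12 h to 24 h was called for 31 genes with no filter, 1 with the 10 CPM filter, 11 with DESeq2 and 0 to 6 on leaving out each library. That from 6 h to 12 h was called for 66 with no filter, 39 with DESeq2 and 4 to 18 on leaving out each library. The causes of these shifts were not tested.

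Of 185 named genes called, 132 kept the call under every alternative run for them and 53 lost it under at least one, while none changed sign. With all 36 libraries in one model, 47 of these lost it. With the replicate block, the calls of Mif, Psmb9, Chrm2, Nrp1 and Angptl1 were lost (adjusted p = 0.0695, 0.0561, 0.0528, 0.068 and 0.0554), and with the 8 libraries and the block those of Gbp2, Iigp1, H2-K1, Angptl1 and Serpina3g (adjusted p = 0.0707, 0.107, 0.0784, 0.08 and 0.201). Csf3 was not called by DESeq2 with the block (0.143). Of 16 not called, 4 were called under at least one alternative: Stat3 under 7, S100b under 3, Sparcl1 under 2 and Vim under 1. The lowest adjusted p was 0.00231 for Stat3, 0.00343 for Sparcl1, 0.00799 for S100b and 0.0346 for Vim, each with the 8 libraries and the block. Of the same 16, 3 near 0 changed sign on leaving out single libraries: the log2 fold change ranged from -0.0237 to 0.1137 for Sox10, from -0.0888 to 0.2511 for Erbb3 and from -0.2505 to 0.4862 for Gfap. The 42 genes called at 6 h numbered 19 to 105 on leaving out each library of that time. Genes of few counts are limited by depth and were given with counting intervals.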

Other observations

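Other gene lists are given here, beside 2.67% of all genes tested called higher and 1.74% called lower. Among 25 neuronal genes, 3 were higher in TME-CM: Hand2, a transcription factor of enteric neurons, at 428, 340.1, 421 and 351 CPM against 248, 213, 195 and 223 CPM (log2 fold change 0.81 ± 0.18, adjusted p = 0.00765), and the neuropeptide genes Gal, at 150.1, 191, 85.4 and 83.6 against 36.3, 64.2, 25.7 and 27.8 CPM (log2 fold change 1.74 ± 0.34, adjusted p = 0.00343), and Cartpt, at 33.0, 23.2, 25.4 and 29.6 against 8.94, 10.7, 9.02 and 8.88 CPM (log2 fold change 1.57 ± 0.31, adjusted p = 0.00265). With all 36 libraries in one model the calls of Hand2, Cartpt and Igfbp4 were lost (adjusted p = 0.104 for Hand2, 0.0957 for Cartpt and 0.0966 for Igfbp4). The summed level of 6 neuron markers was 315 to 431 CPM in TME-CM and 335 to 385 CPM in unstimulated EGCs. Of 11 genes of the IGF axis, the binding proteins Igfbp3 and Igfbp4 were higher, by 2.21 ± 0.32 (adjusted p = 1.60e-04) and 0.85 ± 0.19 (adjusted p = 0.00835). Thbs4, a thrombospondin listed among 4 genes of the interstitial cells of Cajal, rose by 1.03 ± 0.22 (adjusted p = 0.00622), while the other 3 of that list were not called. Of these, Kit and Ano1 leaned the other way, with means of 13.4 and 46.3 CPM in TME-CM against 24.3 and 86.1 CPM in unstimulated EGCs. Etv1 averaged 32.7 against 28.6 CPM.

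In the Wnt pathway, 11 of 17 genes had a negative fold change, and the median log2 fold change was -0.31, though 0 were called lower. The 3 called genes were higher: Rspo3, which amplifies Wnt signals, at 93.7, 63.4, 123 and 89.6 CPM against 9.46, 5.13, 11.8 and 20.3 CPM, the feedback gene Nkd2 at 149, 159, 160.2 and 121 CPM against 76.8, 78.7, 56.6 and 78.6 CPM, and Ctnnb1, which encodes beta-catenin, at 996, 1021, 970.2 and 1039 CPM against 624, 631, 629.6 and 709.8 CPM. Their log2 fold changes were 2.91 ± 0.40 (adjusted p = 8.87e-05), 1.02 ± 0.18 (adjusted p = 0.00126) and 0.63 ± 0.16 (adjusted p = 0.0263, and 0.084 without unstimulated 12 h replicate 3). The adenosine receptor Adora2b was the 1 of 12 purinergic genes called, at 16.8, 14.9, 16.3 and 29.1 CPM against 1.052, 4.71, 4.10 and 3.19 CPM (log2 fold change 2.53 ± 0.57, adjusted p = 0.00915, and 0.0616 without TME-CM 12 h replicate 4). Fabp5, a fatty acid carrier, was the 1 of 15 lipid carriers called, with a log2 fold change of 1.11 ± 0.18 (adjusted p = 3.86e-04), and Ednra, the endothelin receptor A, the 1 of 16 in the neurotrophic list, with 1.66 ± 0.30 (adjusted p = 0.00113). Of 33 cell cycle genes only the inhibitor Cdkn1c was called, lower by -0.88 ± 0.24 (adjusted p = 0.0385, and 0.181 without unstimulated 12 h replicate 2). Of 25 genes of ER stress and the amino acid response only Slc7a11 was called, and the median log2 fold change of that list was 0.01. In the model of all 36 libraries, the calls of Ctnnb1, Adora2b, Ednra and Cdkn1c were lost (adjusted p = 0.0579 for Ctnnb1, 0.0538 for Adora2b, 0.3 for Ednra and 0.224 for Cdkn1c), and Ctnnb1 was also not called with no filter on low counts (adjusted p = 0.0523).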
